A study of Arabidopsis thaliana with 12 samples.

Results

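Transcripts of 35 Arabidopsis thaliana genes for proteins of the cytosolic small ribosomal subunit were followed through all 6 columns of a seedling expression table with 33602 loci. The genes were taken by locus code from a list of cytosolic RPS genes, and all 35 codes were found. They encode 15 proteins. For 13 of these the list holds more than 1 gene, with 2 genes for 6 proteins and 3 genes for 7 proteins, so that paralogs, the copies of a gene that encode versions of the same protein, can be compared. No expression value entered the choice of the genes, although the list was drawn up when earlier results from these data were known. An average of 5 RPKM or more (reads per kilobase of gene and per M reads, with M for mega) over the 6 columns was reached by 34 of the 35, among 14079 genes in all, and the other one, the S8 gene AT5G59240, is reported separately where its low level matters.

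All groups were seedlings of accession Columbia, 11 days old, raised under continuous light on an MS-based medium with 2% sucrose. The first was lba1, whose genotype the labels give as upf1-/-. The second was upf3-1, given as upf3-/-, and the third was lba1 upf3-1, which carries both mutations. Cycloheximide seedlings were wild type plants kept for 4 h in liquid MS medium with 10 µg/ml cycloheximide, a drug that stops the ribosome during elongation. Mock seedlings were wild type plants kept for 4 h in the same medium without it, and the last group was untreated wild type. UPF1 and UPF3 are factors of nonsense-mediated decay, the pathway that removes mRNAs whose translation ends too early, and lba1 changes a single position of the UPF1 protein. Each group had 2 libraries but only 1 column in the table, so the differences below have no replicate check, and no SD or p-value can be attached to them.

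The small subunit of the cytosolic ribosome binds the mRNA and reads its codons, and every ribosome holds a copy of each of its proteins. In Arabidopsis nearly all of these proteins are encoded by small families of similar genes that are active together in growing tissue. Their mRNAs are among the most abundant of a seedling, and their promoters often carry short elements named site II and telobox, which have been linked to expression in dividing cells. The protein kinase TOR adjusts ribosome production to nutrients and phosphorylates S6 through the S6 kinases.

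The 35 genes lie on all 5 chromosomes, with 6, 5, 7, 5 and 12 of them on chromosomes 1 to 5. Their coding regions are 435 to 897 bases long, with a median of 573, and hold 2 to 5 introns, with a median of 4. Paralogs of a protein shared 74.2% to 91.1% of their coding bases over 27 pairs, with a median of 85.9%, against 34.8% to 57.9% over the 568 pairs of genes for different proteins. Each of the 33 genes with a listed paralog was most similar to a gene for its own protein. The longest identical stretch within a pair was 18 to 53 bases. Reads that fall inside such a stretch could be split between paralogs, and the read length is not given in the sources used here. Exon bases of 10 genes overlap another locus, over 10% of them only in the S12 gene AT2G32060 (11.3%), and the library kit does not mark strand.

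The stretches just before the annotated starts of 8 genes are shown because their paralogs differed most in level or, for S6, because both copies were high. These sets were picked after the expression values had been seen. The sequences come from the RefSeq genome TAIR10.1, run 5′ to 3′ towards the gene, and end at the base before its annotated start. Capitals mark site II (TGGGCC) and the telobox (AAACCCTA), each read on either strand, so that they also appear as GGCCCA and TAGGGTTT. The S9 genes are AT5G15200 (chr5:4936430-4936579, minus strand) and AT5G39850 (chr5:15949760-15949909, plus strand).
AT5G15200: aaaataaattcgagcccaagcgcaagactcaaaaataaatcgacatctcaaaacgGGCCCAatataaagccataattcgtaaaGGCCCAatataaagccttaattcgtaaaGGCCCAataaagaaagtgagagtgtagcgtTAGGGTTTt
AT5G39850: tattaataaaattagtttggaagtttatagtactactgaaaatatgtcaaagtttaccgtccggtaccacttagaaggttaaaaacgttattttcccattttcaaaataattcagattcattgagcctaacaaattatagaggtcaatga

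The S8 genes are AT5G20290 (chr5:6853107-6853256, minus strand) and AT5G59240 (chr5:23903768-23903871, minus strand). The window of the second stops after 104 bases, where the neighbouring locus AT5G59250 begins.
AT5G20290: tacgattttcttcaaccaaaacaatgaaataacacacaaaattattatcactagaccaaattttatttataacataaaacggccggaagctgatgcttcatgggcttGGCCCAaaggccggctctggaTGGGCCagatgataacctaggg
AT5G59240: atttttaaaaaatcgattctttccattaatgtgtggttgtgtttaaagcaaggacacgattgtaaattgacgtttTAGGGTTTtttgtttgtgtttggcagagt

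Of the S11 genes, AT3G48930 (chr3:18142282-18142431, minus strand) and AT4G30800 (chr4:15000810-15000959, plus strand) are set side by side.
AT3G48930: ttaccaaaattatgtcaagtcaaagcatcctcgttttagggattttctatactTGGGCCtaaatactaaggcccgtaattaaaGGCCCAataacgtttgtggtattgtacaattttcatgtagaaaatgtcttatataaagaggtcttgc
AT4G30800: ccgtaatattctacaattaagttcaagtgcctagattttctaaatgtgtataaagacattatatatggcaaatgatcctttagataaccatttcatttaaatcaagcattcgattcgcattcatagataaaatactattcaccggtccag

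The S6 genes are RPS6A (chr4:15347805-15347954, minus strand) and RPS6B (chr5:3260255-3260404, minus strand), the second with a pair of overlapping site II matches that form a palindrome.
RPS6A: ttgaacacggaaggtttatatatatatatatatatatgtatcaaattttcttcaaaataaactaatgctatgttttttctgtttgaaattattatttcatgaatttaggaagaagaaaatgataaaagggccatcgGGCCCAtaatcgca
RPS6B: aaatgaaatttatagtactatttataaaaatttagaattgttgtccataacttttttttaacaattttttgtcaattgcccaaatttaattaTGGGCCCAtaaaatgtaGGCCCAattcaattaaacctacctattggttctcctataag

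In each of the S9, S8 and S11 pairs, the gene with the much higher transcript level had 2 or more site II matches in its window, and the gene with the low level had none. These pairs were picked for their levels, and other families differed. Among S14 genes AT3G11510 had no match in 250 bases and the less abundant AT3G52580 had 1. Of the S12 pair, whose order changed between columns, AT1G15930 had none and AT2G32060 had 1. AT5G59240 had 1 telobox, and AT5G39850 and AT4G30800 had neither element. Over 250 bases before the start, site II was found in 20 of the 35 genes (57.1%) and in 17.7% of the 13803 protein-coding genes that averaged 5 RPKM or more. The telobox was found in 8 of the 35 genes (22.9%) and in 3.41% of those protein-coding genes. Both elements together occurred in 5 of the 35 genes (14.3%), against 1.14%. In all 27443 nuclear protein-coding genes the shares were 13.7%, 4.49% and 0.984% for site II, the telobox and both. Site II was also found in 45.2% of 62 other cytosolic small subunit genes and 53.8% of 26 large subunit genes. Of 11 nuclear genes for the plastid small subunit 63.6% had it. The telobox was found in 11.3%, 7.69% and 9.09% of these lists, in the same order, and both elements in 4.84%, 3.85% and 9.09%. Counting overlapping matches separately, the 40 site II matches of the 35 genes began between 134 and 8 bases before the gene start. Their 9 telobox matches began between 58 and 9 bases before it. These matches describe letters only, and annotated starts may differ from the starts used in seedlings.

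**Figure D1:**
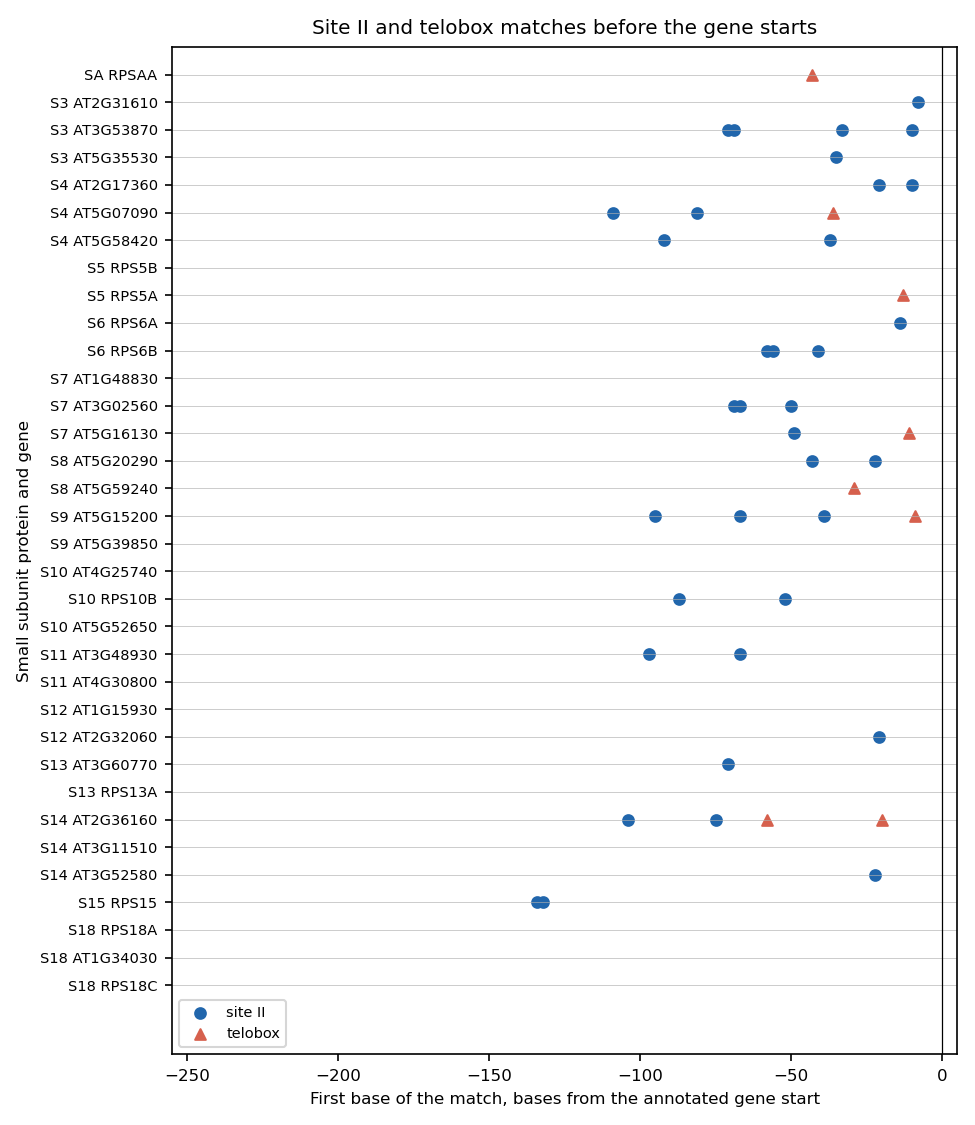
Positions of site II (circles) and telobox (triangles) matches on either strand in the 250 bases before the annotated start of 34 of the 35 genes. The horizontal axis gives the first base of a match in bases from the start, and each row is a gene. All matches lie within 134 bases of the start, and site II is present in 19 rows and the telobox in 7.

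Implied depths were 85.3 to 91.7 M reads for the mutant, cycloheximide and mock columns and 83.1 M reads for wild type. A small subunit gene rested on a median of 1056 reads with cycloheximide and of 6754 to 11208 in the other columns, with 19 reads at the least. Differences are on the scale of log2(RPKM + 0.5), which understates those of low genes. Counting error is given as ± the distance from a log2 difference to either end of its 95% interval, and it leaves out all variation between plants. The UPF3 transcript, as a check of the labels, had 4.95 RPKM in the upf3-1 column, 4.82 with both mutations, 22.2 in lba1 and 13.1 in wild type. UPF1 was at 19.2 to 29.4 RPKM in the 6 columns, and its level does not check a point mutation. Leaf marker genes (4 genes) summed to 14458 RPKM in lba1, 13885 in upf3-1, 606 in lba1 upf3-1, 2531 with cycloheximide, 7729 in mock and 15450 in wild type. Sums over 4 dividing-cell markers were 40.8, 25.4, 7.01, 8.78, 20.9 and 45.6 RPKM in the same columns. None of these 8 markers was at 0 in any column. Root markers (4 genes) summed to 639, 539, 661, 21.0, 218 and 527 RPKM and seed markers (3 genes) to 36.9, 2.49, 139, 796, 3.02 and 5.82 RPKM, again in that order. Single genes set both sums. PYK10 held 660 of the root sum in lba1 upf3-1 and 516 in wild type, while CASP1 was at 0.793 RPKM in lba1 upf3-1 against 6.26 in wild type, EXPA7 at 0.157 against 3.10 and COBL9 at 0.072 against 1.496. Of the seed sum with cycloheximide SESA1 held 795 RPKM, whereas CRU3 was at 1.14 and OLEO1 at 0.052. In lba1 upf3-1 CRU3 was at 95.2 RPKM and OLEO1 at 41.5. The leaf sum in lba1 joined opposite differences. LHCB1.1 was at 3113 RPKM in lba1 against 1623 in wild type, and LHCB1.3 at 4467 against 3104. RBCS1A and CA1 were lower in lba1, at 5991 against 9500 RPKM and at 887 against 1223. Flower and pollen markers (2 genes) did not exceed 0.25 RPKM. Whether such shifts in tissue make-up have a part in the differences below was not tested, and in whole seedlings fewer cells of a type and less RNA per cell cannot be told apart.

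Together the 35 genes summed to 3127 RPKM in lba1, 3195 in upf3-1, 2612 in lba1 upf3-1, 432 with cycloheximide, 4551 in mock and 4161 in wild type. This was 0.673%, 0.666%, 0.571%, 0.0886%, 1.00% and 0.890% of the summed RPKM of those columns. The sum was thus highest in mock and wild type, lower in each mutant and lowest by far with cycloheximide. The median gene was at 85.4, 87.0, 70.1, 12.7, 126 and 109.7 RPKM in the same columns. In each column the S8 gene AT5G20290 was the highest of the 35 and its paralog AT5G59240 the lowest. Outside cycloheximide, 33 or 34 of the genes stood above the median of the 14079 genes described, which was 12.04 to 13.4 RPKM. With cycloheximide 25 of them did, against a median of 7.78 RPKM.

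**Figure D2:**
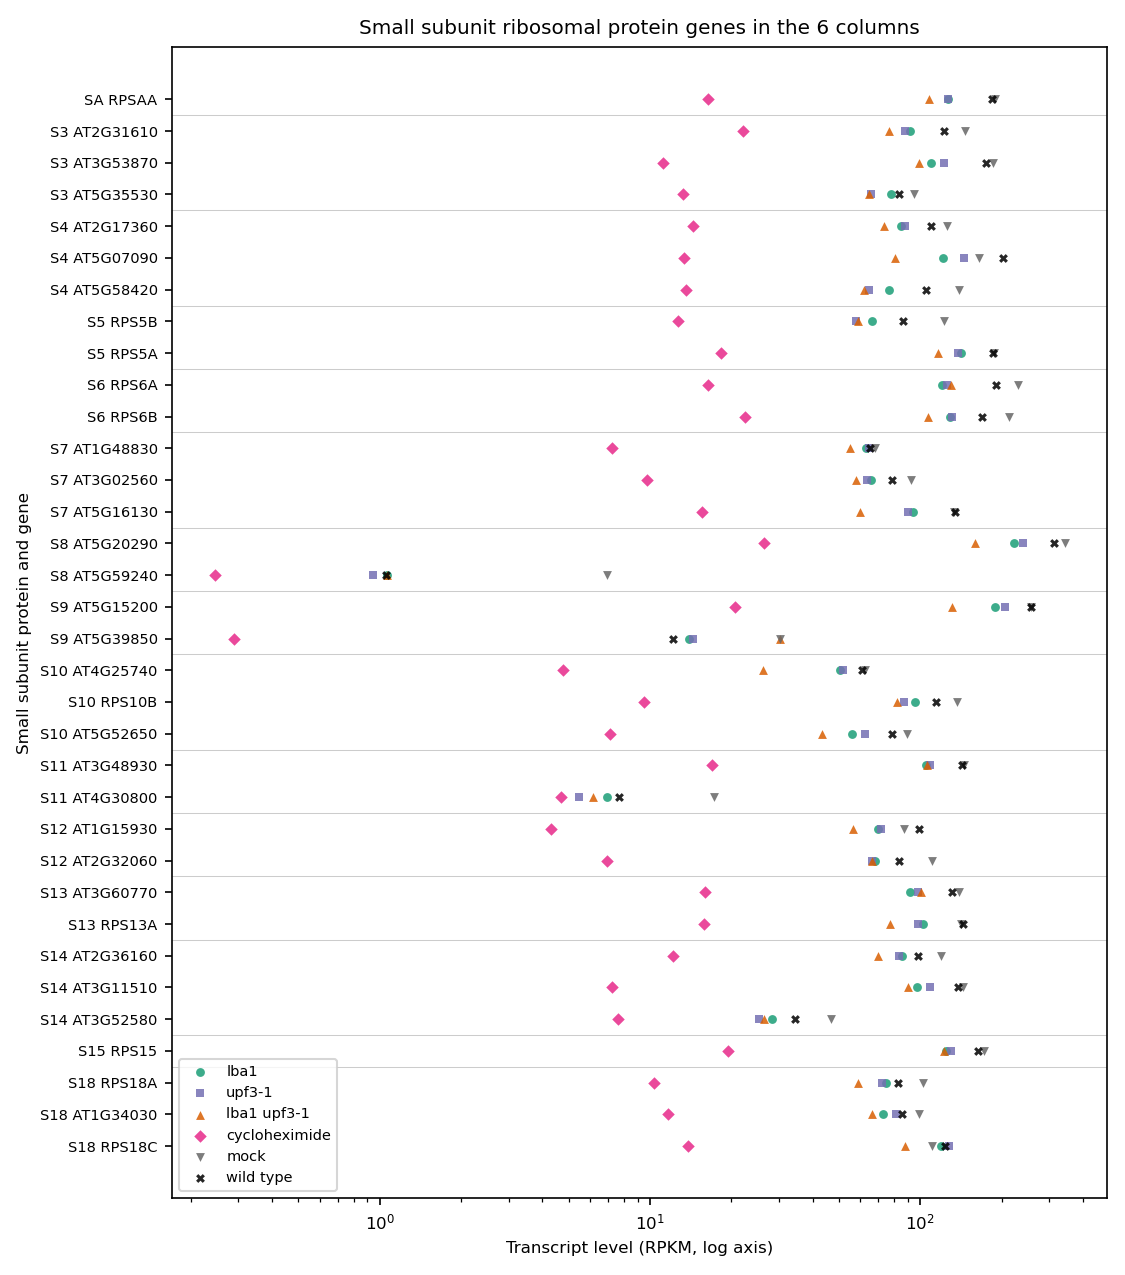
Transcript level of 34 of the 35 genes (rows, grouped by protein) in RPKM on a log axis, with 1 symbol per column of the table. Cycloheximide symbols lie to the left of all others in every row, and AT5G59240, AT5G39850 and AT4G30800 lie far to the left of their paralogs.

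S3, S9 and S10 sit near the path by which mRNA enters the small subunit in ribosome structures from yeast and other eukaryotes. The S3 gene AT2G31610 was at 91.5 RPKM in lba1, 87.8 in upf3-1, 76.6 in lba1 upf3-1, 22.1 with cycloheximide, 146 in mock and 122 in wild type. Its paralog AT3G53870 was at 110.0 RPKM in lba1, 123 in upf3-1, 98.8 in lba1 upf3-1, 11.2 with cycloheximide, 186 in mock and 175 in wild type. AT5G35530, the third S3 gene, was at 78.2 RPKM in lba1, 65.5 in upf3-1, 64.9 in lba1 upf3-1, 13.3 with cycloheximide, 95.2 in mock and 83.4 in wild type. AT3G53870 was the highest of the 3 in every column except cycloheximide, where it was the lowest and AT2G31610 the highest. The share of AT3G53870 in the summed S3 level was 24% with cycloheximide, against 43.5% in mock and 45.9% in wild type, whereas AT2G31610 held 47.4% with cycloheximide and 34.2% in mock.

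The S9 gene AT5G15200 was at 189 RPKM in lba1, 206 in upf3-1, 131 in lba1 upf3-1, 20.6 with cycloheximide, 256 in mock and 257 in wild type. Its paralog AT5G39850 was at 13.9 RPKM in lba1, 14.4 in upf3-1, 30.3 in lba1 upf3-1, 0.289 with cycloheximide, 30.4 in mock and 12.2 in wild type. The copies went opposite ways in lba1 upf3-1, where AT5G39850 was higher than in wild type by 1.28 ± 0.10 on the log2 scale and AT5G15200 lower, at −0.97 ± 0.03. AT5G39850 thereby reached 18.8% of the S9 level in lba1 upf3-1, against 4.54% in wild type. With cycloheximide it rested on 26 reads (95% counting interval 0.189 to 0.423 RPKM) and held 1.38%, against 10.6% in mock. Of the 35 genes this one had the lowest cycloheximide difference, −5.29 ± 0.21. It was also the one gene whose level was above wild type beyond counting error in lba1 (0.18 ± 0.11), and 1 of 2 in upf3-1 (0.23 ± 0.11).

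S10 has 3 genes. AT4G25740 was at 50.6 RPKM in lba1, 51.6 in upf3-1, 26.1 in lba1 upf3-1, 4.76 with cycloheximide, 62.7 in mock and 60.9 in wild type. In lba1 upf3-1 it was below wild type by more than 2-fold (−1.21 ± 0.07), while RPS10B and AT5G52650 were at −0.48 and −0.85. All 3 had cycloheximide differences between −3.79 and −3.56.

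SA, S5 and S14 lie towards the site where mRNA leaves the subunit. RPSAA, the listed gene for SA, was at 127 RPKM in lba1, 126 in upf3-1, 107 in lba1 upf3-1, 16.4 with cycloheximide, 189 in mock and 184 in wild type. RPS5A, a gene whose promoter is widely used to drive expression in meristems and embryos, was at 141 RPKM in lba1, 137 in upf3-1, 116 in lba1 upf3-1, 18.2 with cycloheximide, 187 in mock and 186 in wild type. RPS5B was at 66.5 RPKM in lba1, 57.9 in upf3-1, 58.7 in lba1 upf3-1, 12.7 with cycloheximide, 122 in mock and 86.3 in wild type. RPS5A was above RPS5B in every column. The gap between their log2 differences was 0.49 in mock against wild type, where RPS5B was higher (0.50 ± 0.04) and RPS5A was at 0.01 ± 0.03, and 0.14 or less in the other comparisons.

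Among S14 genes, AT3G11510 was at 97.0 RPKM in lba1, 109 in upf3-1, 90.5 in lba1 upf3-1, 7.23 with cycloheximide, 144 in mock and 138 in wild type. AT2G36160 was at 85.4 RPKM in lba1, 83.3 in upf3-1, 70.1 in lba1 upf3-1, 12.2 with cycloheximide, 119.6 in mock and 98.4 in wild type, and AT3G52580 at 28.3 RPKM in lba1, 25.2 in upf3-1, 26.4 in lba1 upf3-1, 7.63 with cycloheximide, 46.9 in mock and 34.3 in wild type. AT3G11510 led in every column but cycloheximide, in which AT2G36160 was the highest and AT3G11510 was close to AT3G52580. Its share was 26.7% with cycloheximide, against 46.4% in mock and 50.9% in wild type, while that of AT3G52580 was 28.2% with cycloheximide and 15.1% in mock. This made S14 the protein with the widest range of a paralog share over the columns, 24.2 percentage points. The cycloheximide differences of the 3 genes were −4.23 ± 0.12, −3.24 ± 0.10 and −2.54 ± 0.12.

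S13, S15 and S18 take part in contacts with the large subunit or lie in the head near the decoding site. RPS13A was at −0.89 in lba1 upf3-1 and −3.11 with cycloheximide, and its paralog AT3G60770 was at −0.38 and −3.09 in the same comparisons. RPS15 was at −0.42 and −3.12. RPS18C was at 119 RPKM in lba1, 127 in upf3-1, 88.2 in lba1 upf3-1, 13.8 with cycloheximide, 110.3 in mock and 123 in wild type. It differed little from wild type in both single mutants (−0.05 ± 0.04 in lba1 and 0.05 ± 0.04 in upf3-1), and the sign in upf3-1 turned with median scaling. The summed level of the S18 genes was the closest to wild type of the 15 proteins in both single mutants, at −0.13 in lba1 and −0.06 in upf3-1.

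S6, the small subunit protein phosphorylated by S6 kinase, is made from a pair of genes that were both abundant. RPS6A was at 121 RPKM in lba1, 125 in upf3-1, 130.2 in lba1 upf3-1, 16.3 with cycloheximide, 230.0 in mock and 191 in wild type. RPS6B was at 129 RPKM in lba1, 131 in upf3-1, 107 in lba1 upf3-1, 22.5 with cycloheximide, 214 in mock and 169.7 in wild type. RPS6A was above RPS6B in lba1 upf3-1, mock and wild type and below it in lba1, upf3-1 and cycloheximide. In the mutants RPS6A differed from wild type by −0.66 ± 0.03 in lba1, −0.61 ± 0.03 in upf3-1 and −0.55 ± 0.03 in lba1 upf3-1. With cycloheximide it was at −3.78 ± 0.07 and RPS6B at −3.22 ± 0.06.

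The remaining proteins of the body of the subunit include S4, which had 3 genes. AT5G07090 was at 121 RPKM in lba1, 146 in upf3-1, 80.5 in lba1 upf3-1, 13.4 with cycloheximide, 166 in mock and 202 in wild type. AT2G17360 was at 85.1 RPKM in lba1, 87.8 in upf3-1, 73.6 in lba1 upf3-1, 14.4 with cycloheximide, 126 in mock and 109.7 in wild type, and AT5G58420 at 76.9 RPKM in lba1, 64.8 in upf3-1, 61.9 in lba1 upf3-1, 13.6 with cycloheximide, 139 in mock and 105 in wild type. AT5G07090 was the highest of them in all columns but cycloheximide. There the shares were close, at 34.7% for AT2G17360, 32.9% for AT5G58420 and 32.4% for AT5G07090. Each had a counting error of 1.3 to 1.4 percentage points. In lba1 upf3-1 AT5G07090 was more than 2-fold below wild type, the lowest value of the 35 in that comparison (−1.32 ± 0.03), and its share of S4 was 37.3%, against 48.5% in wild type. It was also the lowest in lba1 (−0.73 ± 0.03) and in mock against wild type (−0.28 ± 0.03).

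S12, a protein of eukaryotic ribosomes that bacteria lack, had a pair of genes of close levels. AT1G15930 was at 69.8 RPKM in lba1, 71.7 in upf3-1, 56.2 in lba1 upf3-1, 4.30 with cycloheximide, 87.3 in mock and 98.8 in wild type. AT2G32060 was at 68.3 RPKM in lba1, 66.0 in upf3-1, 66.2 in lba1 upf3-1, 6.96 with cycloheximide, 111 in mock and 83.7 in wild type. Their order was not stable, since AT1G15930 was the higher copy in lba1, upf3-1 and wild type and the lower one in lba1 upf3-1, cycloheximide and mock. In lba1 they differed by less than counting error. The summed S12 level had the lowest cycloheximide difference of the 15 proteins, −4.08.

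The S7 gene AT5G16130 was at 94.0 RPKM in lba1, 90.3 in upf3-1, 59.9 in lba1 upf3-1, 15.5 with cycloheximide, 133 in mock and 134 in wild type. It was past 2-fold in lba1 upf3-1 (−1.15 ± 0.05), whereas AT1G48830 was at −0.24 ± 0.05. AT1G48830 was among the 3 highest differences in each mutant, at −0.04 in lba1 and −0.01 in upf3-1, both within counting error of 0.

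The S8 gene AT5G20290 was at 222 RPKM in lba1, 240.1 in upf3-1, 159.7 in lba1 upf3-1, 26.4 with cycloheximide, 342 in mock and 311 in wild type. AT5G59240 was at 1.07 RPKM in lba1, 0.942 in upf3-1, 1.06 in lba1 upf3-1, 0.245 with cycloheximide, 6.92 in mock and 1.06 in wild type. The second copy held 1.99% of the S8 level in mock and under 1% elsewhere. Its mock value was 2-fold or more above wild type (2.25 ± 0.24), and with cycloheximide it rested on 19 reads (95% counting interval 0.148 to 0.383 RPKM).

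S11 had the third copy of low level, AT4G30800, at 6.95 RPKM in lba1, 5.45 in upf3-1, 6.15 in lba1 upf3-1, 4.68 with cycloheximide, 17.3 in mock and 7.69 in wild type. It stood 1.12 ± 0.13 above wild type in mock and had the smallest cycloheximide difference of the 35, −1.78 ± 0.14. AT3G48930, an abundant S11 copy, was at −3.05 with cycloheximide.

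**Figure D3:**
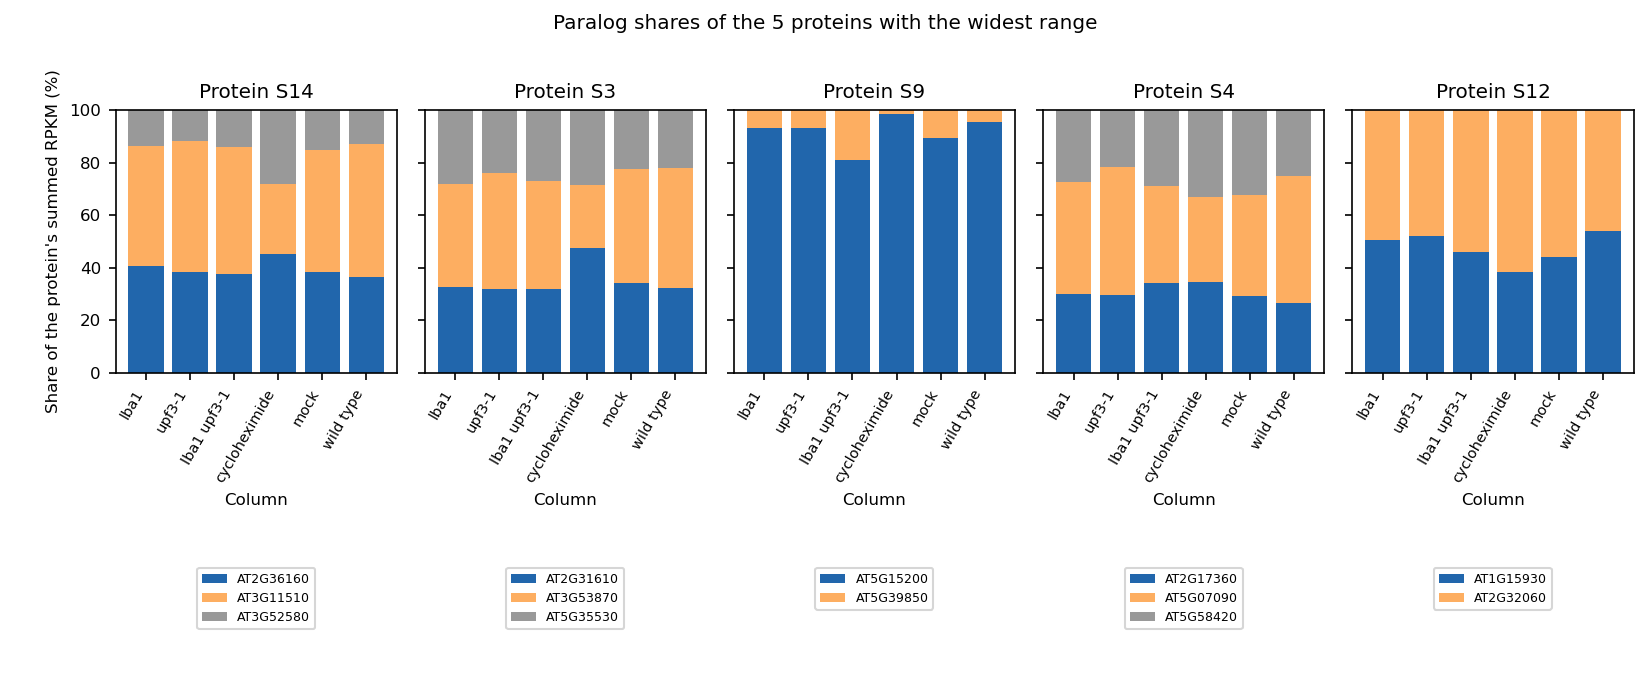
Share of each paralog in the summed RPKM of its protein (vertical axis, percent) in the 6 columns for the 5 proteins with the widest range. The cycloheximide bar departs most from the others for S14 and S3, and the AT5G39850 segment of S9 is widest in lba1 upf3-1 at 18.8%.

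In lba1 most of the genes were somewhat below wild type. Levels of 33 of the 35 were lower and 2 higher, 31 and 1 of them beyond counting error. None was 2-fold higher, as 4.77% of the 14079 genes described were, or 2-fold lower, as 1.93% were. By at least 0.32 on the log2 scale, the smaller of the sizes used, 20 were lower, beside 15.6% of the genes described, and 0 were higher, beside 28.1%. The median over the 34 genes past the mean level of 5 RPKM was −0.39, beside 0.08 for the genes described. The 3 lowest were AT5G07090 (−0.73), AT3G53870 (−0.67) and RPS6A (−0.66), and the highest were AT5G39850, AT5G59240 (0.01) and AT1G48830. The summed level was 0.752 of that in wild type. Of the 34, quantile normalization left 11 lower by at least 0.32, and scaling the columns to the same median gave 28.

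The picture in upf3-1 was similar in size. Of the 35 genes 33 were below and 2 above wild type, 31 and 2 of them beyond counting error. None was 2-fold higher, beside 3.81% of the genes described, or 2-fold lower, beside 0.547%. By at least 0.32 on the log2 scale 23 were lower, beside 14.1%, and 0 were higher, beside 25%. The median over the 34 was −0.37 and that of the genes described 0.05. The lowest were AT5G58420 (−0.69), RPS6A (−0.61) and RPS5B (−0.57), and the highest AT5G39850, RPS18C and AT1G48830. The sum was 0.768 of that in wild type. The single and double mutants were set against the same wild type column, so an unusual wild type value would appear in each of these comparisons.

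In lba1 upf3-1 the genes were lower again and spread further. Levels of 33 were below wild type beyond counting error, and AT5G39850 was above it. By the 2-fold rule 3 of the 34 were lower, beside 21.2% of the genes described, and 1 was higher, beside 22.1%. By at least 0.32 on the log2 scale 31 were lower and 1 higher, beside 35.6% and 43%. The median was −0.56 over the 34 and 0.12 over the genes described, and the sum was 0.628 of that in wild type. The lowest were AT5G07090, AT4G25740 and AT5G16130, and the highest after AT5G39850 were AT5G59240 (0.01) and AT1G48830. With listed paralogs summed no protein was past 2-fold, and the sums ran from −0.96 (S8) to −0.42 (S15). For S15 only 1 gene was listed. Its paralog RPS15D, at 39.8 RPKM in lba1 upf3-1 against 65.3 in wild type, was not in the sum. With the columns scaled to the same median 7 genes were lower and 1 higher past 2-fold. Leaf and dividing-cell marker sums were both far below wild type in this column, as given above.

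With cycloheximide every one of the 35 genes was more than 2-fold below mock, beside 44.1% of the genes described, and none was higher, beside 13.3% at 2-fold. The median over the 34 was −3.25 and over the genes described −0.81. The sum over the 35 genes was 10.5 times as high in mock as with cycloheximide. Differences ran from −5.29 (AT5G39850), −4.23 (AT3G11510) and −4.19 (AT1G15930) to −2.70 (AT2G31610), −2.54 (AT3G52580) and −1.78 (AT4G30800). Summed over listed paralogs the 15 proteins were closer together, between −4.08 (S12) and −3.03. Of the 13 proteins with paralogs, 4 had copies whose differences were more than 2-fold apart, with the widest gaps in S9 (1.69) and S14 (1.68). After scaling the columns to the same median the gene median was −2.50 and all 35 stayed past 2-fold. After quantile normalization it was −2.66, and AT4G30800 (−0.99) was just short of 2-fold.

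Mock against wild type gave small differences for the abundant copies and larger ones for the copies of low level. Levels of 28 genes were higher and 7 lower, 25 and 4 beyond counting error. Past 2-fold 3 of the 35 were higher, of which 2 (AT5G39850 and AT4G30800) belong to the 34, beside 14.2% of the genes described, and 0 were lower, beside 11.9%. The third was AT5G59240. By at least 0.32 on the log2 scale 8 of the 35 were higher, beside 40.4%. The median was 0.16 over the 34 and 0.15 over the genes described, and the sum was 1.09 times that in wild type. The lowest were AT5G07090 (−0.28), AT1G15930 (−0.18) and RPS18C (−0.16). After median scaling 18 genes were above and 17 below wild type, so the direction for the genes as a group rests on the scaling. AT4G30800 then fell short of 2-fold, at 0.99. The cycloheximide and wild type comparisons share the mock column.

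**Figure D4:**
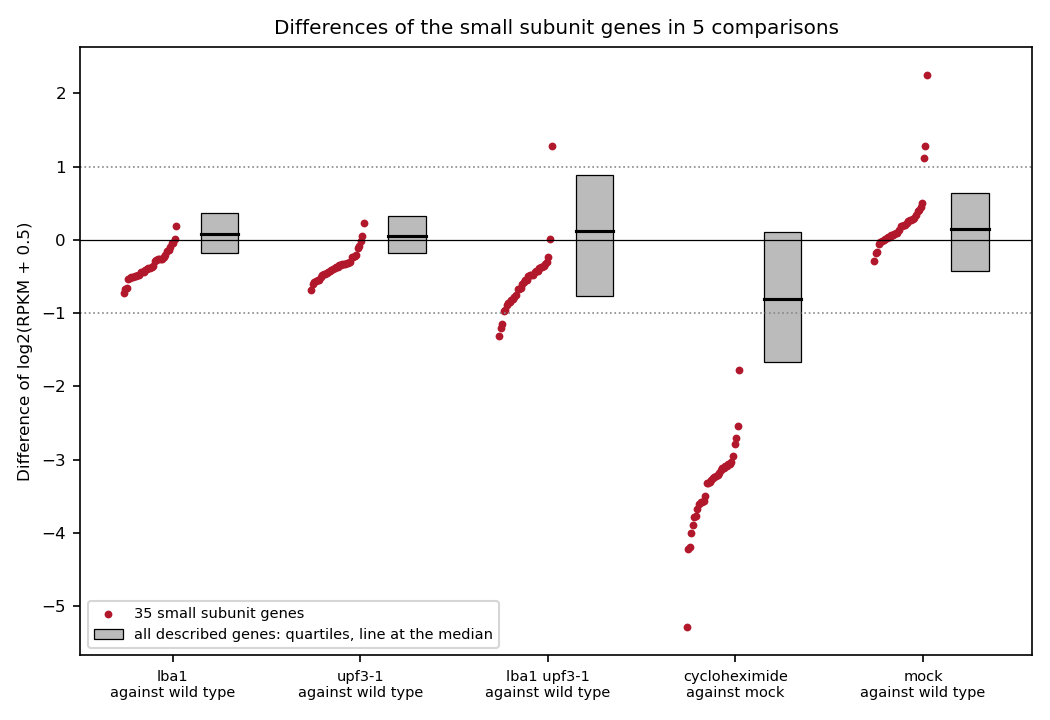
Differences of log2(RPKM + 0.5) for the 35 genes (points, sorted from low to high) in 5 comparisons, beside the quartiles and median of the 14079 genes described (boxes). Dotted lines mark 2-fold. All points lie below −1 for cycloheximide against mock, and the point above 1 for lba1 upf3-1 is AT5G39850.

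Genes with and without site II were compared as a description. The 20 genes with the element had a median of 92.8 RPKM in lba1, 89.1 in upf3-1, 78.5 in lba1 upf3-1, 14 with cycloheximide, 139 in mock and 127 in wild type. The 15 genes without it were at 69.8, 71.7, 58.7, 7.24, 99 and 85.9 RPKM in the same columns. They include the low copies AT5G59240, AT5G39850 and AT4G30800. For genes with and without the element, median differences were −0.40 and −0.27 in lba1, −0.38 and −0.33 in upf3-1 and −0.56 and −0.55 in lba1 upf3-1. They were −3.23 and −3.32 with cycloheximide and 0.19 and 0.07 in mock. The ranges overlapped in every comparison.

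Other genes of the translation machinery were listed for comparison. The other cytosolic small subunit genes (53 of 62 at an average of 5 RPKM or more) had medians of −0.34 in lba1, −0.35 in upf3-1, −0.50 in lba1 upf3-1, −3.53 with cycloheximide and 0.25 in mock. All 53 were lower past 2-fold with cycloheximide. Large subunit genes (26) were at −0.49, −0.49, −0.64, −3.46 and 0.19 in the same comparisons, and all 26 were lower past 2-fold with cycloheximide. Translation factor genes (8) were at −0.42, −0.35, −0.38, −2.91 and 0.51, with 7 of 8 lower past 2-fold with cycloheximide.

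Lists for the plastid small subunit and for assembly were also below wild type in lba1 and upf3-1, and they departed most in other comparisons. The nuclear genes for the plastid small subunit (11), which serve the chloroplast ribosome, had medians of −0.38 in lba1, −0.28 in upf3-1, −3.62 in lba1 upf3-1, −1.54 with cycloheximide and −1.13 in mock. All 11 were lower past 2-fold in lba1 upf3-1. PRPS5, a gene of this list, was at 13.4 RPKM in lba1 upf3-1 against 213 in wild type, and PRPS1 at 29.8 against 265. Genes for small subunit assembly and the nucleolus (14 of 15) were at −0.40, −0.60, −0.47, −2.43 and 1.255. Of these 11 were higher past 2-fold in mock and 13 lower past 2-fold with cycloheximide. FIB2, which encodes the rRNA-modifying protein fibrillarin, was at 1.75 RPKM with cycloheximide against 72.4 in mock, and wild type was at 21.1. NOP58-1, a partner of fibrillarin, was at 1.096 RPKM with cycloheximide against 74.8 in mock.

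The TOR and S6 kinase list (8 genes) had medians of 0.39 in lba1, 0.30 in upf3-1, 0.37 in lba1 upf3-1, −0.83 with cycloheximide and 0.45 in mock. It also holds TCP20, PURA1 and NAC082, which encode neither parts of the TOR complex nor S6 kinases. With cycloheximide the genes of the list ranged from −2.37 to 3.70. S6K2, an S6 kinase gene, was at 11.97 RPKM in lba1, 24.8 in upf3-1, 42.1 in lba1 upf3-1, 377 with cycloheximide, 28.7 in mock and 7.99 in wild type. S6K1, its neighbour and paralog, was at 76.9, 81.2, 80.6, 71.9, 57.8 and 41.1 RPKM in the same columns. S6K2 was thus highest with cycloheximide, the column in which all 35 small subunit genes, the RPS6 pair among them, were lowest. A link between these levels was not tested. TOR itself was at 3.23 to 7.48 RPKM.

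**Figure D5:**
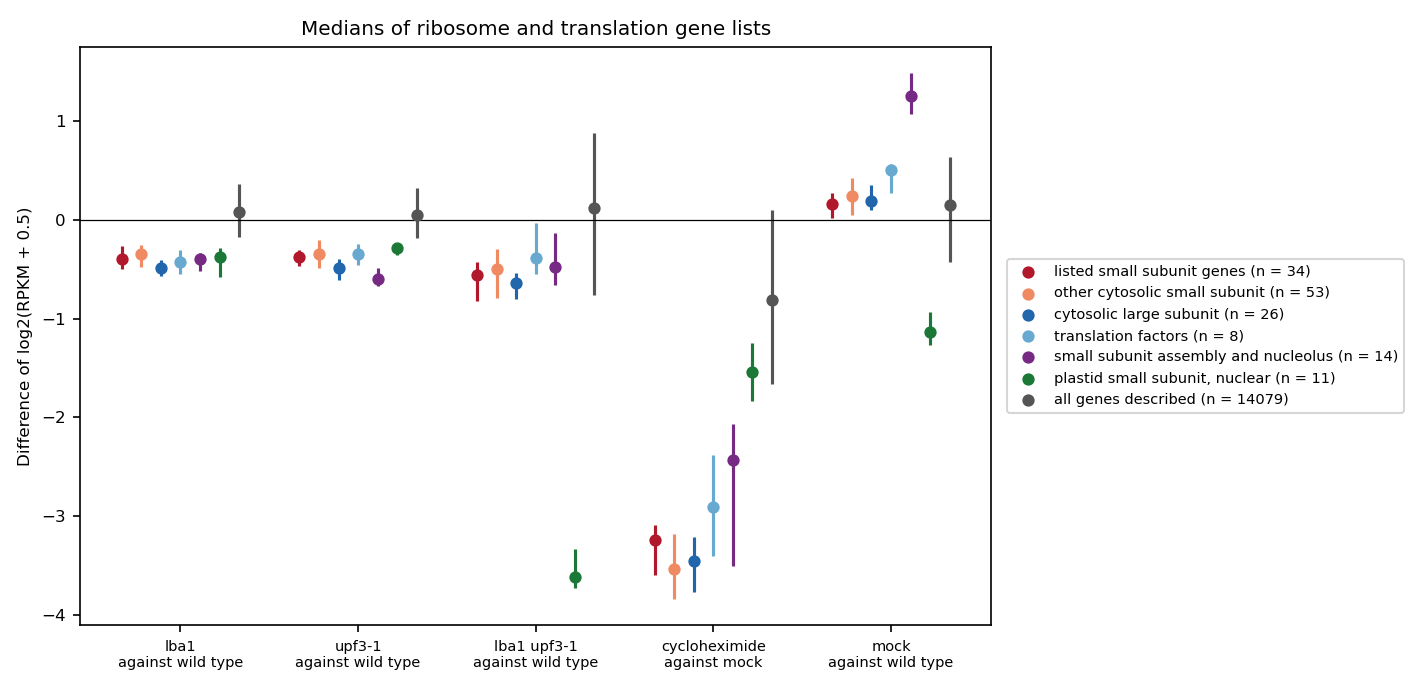
Median (points) and quartiles (lines) of the difference of log2(RPKM + 0.5) for the 34 small subunit genes, 5 other translation lists and all 14079 genes described, in 5 comparisons. The lists of cytosolic ribosomal protein genes lie close together in each comparison. The plastid list departs from them at −3.62 in lba1 upf3-1, −1.54 with cycloheximide and −1.13 in mock, and the assembly and nucleolus list at 1.255 in mock.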

How the data were processed

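The authors deposited RPKM values for 33602 loci, 1 column for each of 6 groups of 2 libraries, made with an Illumina TruSeq kit from total RNA per the labels' protocols. Per the submitters' processing notes, reads were placed on build TAIR10. Which aligner and gene lengths were used, and how 2 libraries became 1 column, is not given in the sources used. No column of the table was left unused (0 columns).

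Names and structures came from the TAIR10.1 annotation, which held 32835 of the locus codes and lacked 767. Differences were taken on log2(RPKM + 0.5), for lists and background over the 14079 genes averaging 5 RPKM or more, and described by rules of size (1 and 0.32 on the log2 scale), not by a test. A limma fit had been planned for a column per library. Depth was estimated from the steps between low values (up to 8 reads) of 623 transfer RNA loci, with 86 to 114 such values per column. The depth chosen was the one that made the largest share of them whole within 0.05 of a read plus rounding. That share was 94.2% to 97.4%. The floor of 3 reads at 1 kb is 0.0327 to 0.0361 RPKM. The ± values are 95% normal approximations from Poisson counts on the scale of log2(RPKM + 0.5), and the added 0.5 narrows those of low genes. Intervals given in RPKM are exact 95% Poisson intervals. All of them cover counting error only. The depth and difference calculations were tested on simulated data.

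The genes and lists were chosen with earlier results of these data known. Genes given in full were the paralogs of the 5 proteins with the widest share range, those of S5 and S6, and the 3 highest and 3 lowest per comparison, and others were added to complete a protein or a promoter pair. Of the other lists, the genes named are among the 2 highest and 2 lowest of a comparison. The values of 1 of the 35 genes are not reported here singly. Alternatives were pseudocounts of 0.1 and 1, a filter of 1 RPKM or none, median scaling, quantile normalization, summed paralogs and other denominators. Software was Python 3.11.15, pandas 2.3.3, NumPy 2.4.6, SciPy 1.17.1, Biopython 1.88 and Matplotlib 3.10.9.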

Additional observations from a re-analysis of the deposited data

How the results depend on the processing

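Each group had 1 column, so leaving out a replicate was not possible, and no difference could be set against the spread between plants. No paired analysis was possible because the columns carry no replicate number. Results moved with the scaling of the columns and with the summing of paralogs. Depth limits AT5G59240 and AT5G39850, which rested on 19 and 26 reads with cycloheximide, and reads shared between paralogs may blur their shares. Whether RNA content per seedling differed between the groups cannot be seen in RPKM.

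With the columns scaled to the same median of the genes described, the medians of the 34 genes were −0.54 in lba1, −0.44 in upf3-1, −0.71 in lba1 upf3-1, −2.50 with cycloheximide and 0.024 in mock. Past 2-fold there were then 8 genes in lba1 upf3-1 in place of 4, and 1 in mock in place of 2, and 4 in place of 7 were past 0.32 on the log2 scale in mock. This scaling took out most of the median shifts over the genes described. They were 0.12 in lba1 upf3-1, −0.81 with cycloheximide and 0.15 in mock, and −0.02, −0.10 and 0.02 after it. Quantile normalization gave medians of −0.26 in lba1, −2.66 with cycloheximide and 0.10 in mock, with 11 in place of 20 genes past 0.32 on the log2 scale in lba1 and 1 past 2-fold in mock. Over all genes, the share of 2-fold calls that were higher was 71.2% as deposited and 55.7% after median scaling in lba1, 87.4% as deposited and 74.1% after quantile normalization in upf3-1, and 23.1% as deposited and 47.5% after median scaling with cycloheximide. With paralogs summed, the medians were −0.64 in lba1 upf3-1 and 0.094 in mock, with 0 genes past 2-fold in either and 0 past 0.32 on the log2 scale in mock. Without the 100 most abundant loci in the denominator, the 35 genes held 0.835% in lba1, 0.837% in upf3-1, 0.661% in lba1 upf3-1, 0.1001% with cycloheximide, 1.157% in mock and 1.104% in wild type. Over nuclear loci alone they held 0.678% in lba1, 0.669% in upf3-1, 1.007% in mock and 0.894% in wild type. The cause of these moves was not tested. No median changed sign. The other 90 values moved by no more than counting error or, for counts of genes, by no more than 1.5 times. Among these counts, genes past 0.32 on the log2 scale numbered 28 in lba1, 26 in upf3-1 and 34 in lba1 upf3-1, in place of 20, 23 and 32, both with median scaling and with paralogs summed.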

Other observations

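A few of the cytosolic small subunit genes outside the 35 had some of the highest or lowest differences of their list. RPS27aA, a gene for a ubiquitin fusion of that protein, was at 9.30 RPKM in upf3-1, 3.14 in lba1 upf3-1 and 19.4 in wild type, and at 0.509 RPKM with cycloheximide against 32.7 in mock. RPS19B was at 3.05 RPKM in lba1 upf3-1 against 10.3 in wild type. RACK1C, which encodes a scaffold protein bound to the small subunit, was at 25.1 RPKM in lba1, 25.7 in upf3-1 and 49.5 in wild type, and at 2.22 with cycloheximide against 78.7 in mock. RPS16B was above wild type in all 3 mutants, at 16.2 RPKM in lba1, 15.4 in upf3-1 and 21.9 with both mutations, beside 11.4 in wild type. Of the 53 genes of that list averaging 5 RPKM or more, it had the smallest cycloheximide difference, 13.02 RPKM against 27.3 in mock. RPSAB, the paralog of RPSAA, was at 23.2 RPKM in mock against 7.63 in wild type.

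In the large subunit list, RPL10C was at 331 RPKM in lba1 upf3-1 and 172 in wild type, the one gene of that list higher there by at least 0.32 on the log2 scale. It was at 80.8 RPKM with cycloheximide and 399 in mock. RPL3B was at 1.28 RPKM with cycloheximide, against 41.1 in mock.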
